A study of Mus musculus with 167 samples.

Results

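The 10 transcripts described here are mRNAs made inside mitochondria from mitochondrial DNA, and each encodes a subunit of the respiratory chain. They were taken as a list of gene symbols, matched through the Ensembl gene identifiers of the deposited table, and all 10 were found among its 38924 genes. The table gives RNA levels in lymphoid-primed multipotent progenitors (LMPPs), early blood progenitors of the bone marrow, from wild-type female C57BL/6J mice of 4 and 14 months. Per the labels' protocols, the sorted cells lacked lineage markers and CD150, carried CD34, c-Kit and Sca-1, and had high Flt3. They were then captured singly on a Fluidigm C1 chip. No treatment or gene change is given for either age. There are 84 labelled cells at 4 months and 83 at 14 months, against 84 and 84 columns, and columns could be matched to an age only. A set number, 4 (45 columns) or 5 (39 columns), stands in the names of the 14-month columns, and the labels do not explain it. No animal is named, so each age counts as 1 sample and age cannot be told apart from capture. No test between the ages was therefore possible, and the values below describe these cells. The spread given is the spread between cells.

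The respiratory chain moves electrons along complexes I to IV of the inner mitochondrial membrane and pumps protons, and complex V uses the proton gradient to make ATP. Most subunits are encoded in the nucleus, but a small core set is encoded by mitochondrial DNA. That DNA is transcribed as long precursors from both strands, and tRNAs lying between many of the mRNAs are cut out to release them. Transcripts that start from the same precursor can thus still end at different levels. Blood stem cells are known for low reliance on respiration, and their progeny for a larger one.

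Of the members, 5 belong to complex I, the NADH dehydrogenase (mt-Nd1, mt-Nd2, mt-Nd3, mt-Nd4 and mt-Nd5). mt-Cytb encodes cytochrome b of complex III. mt-Co1, mt-Co2 and mt-Co3 encode the 3 core subunits of complex IV, cytochrome c oxidase, and mt-Atp6 encodes a proton channel subunit of complex V. All lie on the plus strand of chromosome M (mm10, GENCODE annotation) as single-exon genes without introns. In map order they are mt-Nd1 (2751 to 3707), mt-Nd2 (3914 to 4951), mt-Co1 (5328 to 6872), mt-Co2 (7013 to 7696) and mt-Atp6 (7927 to 8607). mt-Co3 (8607 to 9390), mt-Nd3 (9459 to 9806), mt-Nd4 (10167 to 11544), mt-Nd5 (11742 to 13565) and mt-Cytb (14145 to 15288) follow. The shortest member is mt-Nd3, at 348 bases, and the longest mt-Nd5, at 1824.

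Their ends show how tightly these genes are packed. The last 30 bases of mt-Co3 and mt-Nd3 are shown because these neighbours are the members that differed most between the ages. mt-Co1 and mt-Cytb are added for comparison. Capitals mark the encoded letters of the stop codon. The gene overlaps are shown because pairs of genes that share bases led the mitochondrial TPM of 2 cells described further on. In the overlap of mt-Atp8 and mt-Atp6, capitals mark the mt-Atp6 start and the mt-Atp8 stop. In that of mt-Nd5 with mt-Nd6, which lies on the other strand, they mark the stops of both genes. All run 5′ to 3′ on the plus strand and come from the GENCODE transcripts.
mt-Co3 end, chrM:9361-9390: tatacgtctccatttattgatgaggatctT
mt-Nd3 end, chrM:9777-9806: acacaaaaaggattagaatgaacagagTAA
mt-Co1 end, chrM:6843-6872: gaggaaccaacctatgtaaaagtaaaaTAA
mt-Cytb end, chrM:15259-15288: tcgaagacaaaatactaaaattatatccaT
mt-Atp8 and mt-Atp6 overlap, chrM:7927-7969: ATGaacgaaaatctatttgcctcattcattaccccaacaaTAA
mt-Nd5 and mt-Nd6 overlap, chrM:13552-13565: TTAatctcgagTAA

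For mt-Co3, mt-Nd4 and mt-Cytb only the first T of the stop codon is encoded, and the poly(A) tail is known to supply the rest. The other 7 members encode a whole stop codon.

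Values are TPM, a level per transcript length scaled so that each column sums to 1000000, and sequencing depth cannot be read from it. A gene was called detected at TPM 1 or more, and columns with at least 1000 detected genes were kept, which left 64 cells of 4 months, 29 of set 4 and 37 of set 5. The 3 columns just inside that limit (1021 to 1043 genes) held 7.57% to 11.6% of TPM in the members, and the 3 just outside (943 to 998 genes) held 15.2% to 70.5%. Kept cells of 4 months had more genes detected, a median of 3974.5 against 3230 in set 4 and 3376 in set 5. No 2 columns were identical. Of the sort markers, Flt3 was detected in 64 of 64 cells at 4 months and 61 of 66 at 14 months and Cd34 in 57 and 58. The Sca-1 gene Ly6a was found in 25 cells of each age, and Kit in 43 cells at 4 months and 35 at 14 months. Slamf1, which encodes CD150, was at 0 in every kept cell. Markers of neutrophils, monocytes and macrophages, erythroid cells, megakaryocytes, B cells, T cells and mast cells each had a median summed level of 0 TPM at both ages. The neutrophil list reached 974 TPM at 4 months, 52.9 in set 4 and 364930 in a set 5 cell, with 1 TPM or more in 4, 2 and 12 cells, and its markers Ltf and Ngp were at 0 throughout. Its other markers, S100a8, S100a9 and Camp, were each above 0 in set 5. The other lists reached at most 1378 TPM at 4 months and 6668 TPM at 14 months. The B cell list had 1 TPM or more in 28 of 64 cells at 4 months and 16 of 66 at 14 months. The monocyte and macrophage list did so in 17 and 11 cells and the erythroid list in 13 and 13. The part of such cells in the results below was not tested.

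The 10 members together took a larger part of the RNA in the 14-month cells. At 4 months they made up a median 9.83% of TPM, from 3.02% to 50.0% over 64 cells (quartiles 6.57% and 16.2%). At 14 months the median was 15.7%, from 4.49% to 69.6% over 66 cells (quartiles 10.2% and 21.1%). Set 4 had a median of 17.9% and set 5 of 13.0%, so both sets lay above the 4-month cells, though the ranges over cells overlap almost wholly. The difference of medians was 5.86 percentage points in all kept cells and 3.16 with set 5 alone. Among cells with 3000 to 5000 genes detected, the medians were 9.38% in 37 cells of 4 months and 16.0% in 36 cells of 14 months. Because TPM has a fixed total, a larger mitochondrial part lowers the values of every nuclear gene in the same cell.

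Levels per length differed widely between the members, although all 10 come from the same strand. The median level at 4 months was 24662 TPM for mt-Atp6, 24296 for mt-Co3, 17014 for mt-Co2 and 10161 for mt-Co1. It was 8962 TPM for mt-Cytb and 6400.3 for mt-Nd1, and between 1268 and 1922 for mt-Nd2, mt-Nd3, mt-Nd4 and mt-Nd5. The complex IV and V transcripts thus led, and 4 of the 5 complex I transcripts were lowest. The quartile ranges of mt-Atp6 (15285 to 36736 TPM) and mt-Co3 (16456 to 40077 TPM) overlap. Within single cells of 4 months, mt-Co3 was below mt-Atp6 in 25 of 64, so their order differed from cell to cell. The quartile ranges of mt-Co2, mt-Co1, mt-Cytb and mt-Nd1 likewise overlap from each to the next. Such ranges do not compare genes within a cell, where mt-Co2 was below mt-Co1 in only 6 of 64. Across a wider step, the upper quartile of mt-Nd4, 3863 TPM, lay close to the lower quartile of mt-Nd1, 3773 TPM. In set 4 the order was led by mt-Co3, mt-Co2 and mt-Atp6, with medians of 79484, 33927 and 23337 TPM. In set 5 it was led by mt-Co3, mt-Atp6 and mt-Co2, at 36605, 24341 and 20655 TPM. mt-Nd3 had the lowest median of the 10 in both 14-month sets and the eighth in order at 4 months.

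**Figure D1:**
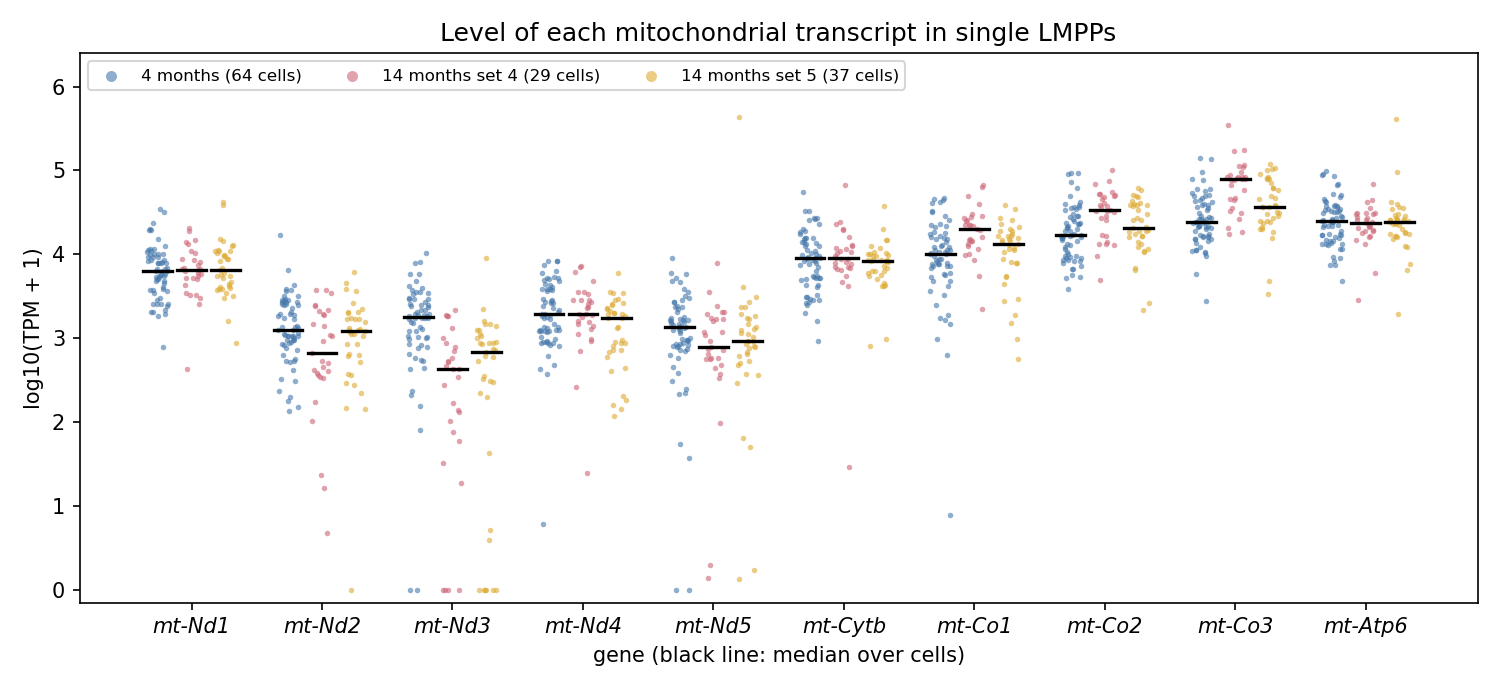
Level of each of the 10 transcripts in every kept cell, as log10(TPM + 1) on the vertical axis, by gene and by set of cells, with a black line at the median. The mt-Co3 medians are 79484 TPM (set 4), 36605 TPM (set 5) and 24296 TPM (4 months), and mt-Nd3 is listed at 0 in 10 of 66 cells of 14 months.

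Of the complex IV transcripts, all 3 had a higher mean at 14 months, and mt-Co3 differed most. mt-Co3 encodes the third core subunit of cytochrome c oxidase, which helps to hold the catalytic core stable. Its level ranged from 2799 to 141693 TPM in the 4-month cells, from 17681 to 352894 TPM in set 4 and from 3396 to 118355 TPM in set 5. The set 4 cells are high and the set 5 cells lie between, and all 3 ranges overlap. Its mean log2(TPM+1) was 14.65 at 4 months (SD between cells 1.02). The same mean was 15.55 at 14 months (SD 1.14), with 16.00 in set 4 and 15.20 in set 5. mt-Co1, the subunit that holds the oxygen-reducing centre, had medians of 10161 TPM (6.92 to 46351) at 4 months, 20003 TPM in set 4 and 13445 TPM in set 5. mt-Co2, the subunit that receives electrons from cytochrome c, had medians of 17014 TPM (3902 to 94402) at 4 months, 33927 TPM in set 4 and 20655 TPM in set 5. For mt-Co1 the means in set 5 (13523 TPM) and at 4 months (13543 TPM) were nearly equal, so the pooled difference of that gene's mean TPM comes from set 4, at 22928 TPM.

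The complex I transcripts differed unequally, and mt-Nd3 stood far below its 4-month level. mt-Nd3 encodes a small subunit with a loop near the quinone site that is known to change shape between resting and active forms of the complex. It was detected in 62 of 64 cells at 4 months (96.9%, exact 95% binomial interval 89.2% to 99.6%) and in 56 of 66 at 14 months (84.8%, interval 73.9% to 92.5%). Such intervals cover counting error over cells only. Its median level was 1803 TPM at 4 months (0 to 10377), 427 TPM in set 4 (0 to 2170) and 692 TPM in set 5 (0 to 8987). Both 14-month sets were therefore low, with ranges that overlap those of the 4-month cells. Across cells, its Spearman correlation with the number of genes detected was 0.46 in set 4, 0.37 in set 5 and -0.18 at 4 months, a description over cells that share a capture. Among cells with 3000 to 5000 genes detected it was found in all 37 cells of 4 months and all 36 of 14 months, with medians of 1885 and 659 TPM.

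The other complex I members differed less. mt-Nd1, an inner membrane subunit next to the quinone site, had medians of 6400.3 TPM at 4 months, 6462 TPM in set 4 and 6443 TPM in set 5, which lie well within the spread between cells. mt-Nd4, a proton-pumping subunit, had medians of 1922, 1959 and 1728 TPM in the same order. mt-Nd2, another pumping subunit, had 1268, 672 and 1226 TPM. mt-Nd5, the pumping subunit at the far end of the membrane arm, had 1349, 777 and 939 TPM. Its mean at 14 months, 7835 TPM, lay above the 1765 TPM of 4 months, with a set 5 cell at 437837 TPM, and without that cell and another of unusual make-up it was 1238 TPM.

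mt-Cytb and mt-Atp6 had similar levels at both ages. mt-Cytb, at the centre of electron transfer in complex III, had medians of 8962 TPM (920 to 55866) at 4 months and 8508 TPM (28.4 to 67219) at 14 months. mt-Atp6 had medians of 24662 TPM (4811 to 99706) at 4 months and 23687 TPM (1934 to 410197) at 14 months, with 23337 TPM in set 4 and 24341 TPM in set 5. For neither gene do the medians differ by an amount near the spread between cells.

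Against all measured genes, a single member was higher and a single member lower by 2-fold or more at 14 months. Genes were taken as measured if the average of their detection rates at the 2 ages reached 10%. That held for 9224 genes and for all 10 members. Their median difference, 14 months minus 4 months in mean log2(TPM+1), was -0.36, and differences are given relative to it. A relative difference of at least 1 was called. mt-Co3, at 1.26, was the 1 member called higher, where 3.37% of all measured genes were. mt-Nd3, at -2.48, was the 1 member called lower, where 5.08% were. With 10 members, a count of 1 is not read further.

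Between those, the complex IV members mt-Co1 (0.95) and mt-Co2 (0.80) came next to mt-Co3. The relative differences of mt-Nd1, mt-Cytb and mt-Atp6 were 0.43, 0.29 and 0.24. The remaining complex I members were at -0.07 (mt-Nd4), -0.16 (mt-Nd5) and -0.44 (mt-Nd2). The median over the 10 members was 0.27, where that of all measured genes is 0 by construction. Without centring, 4 members had a positive and 6 a negative difference, with mt-Co3 at 0.91 and mt-Nd3 at -2.84. mt-Nd4 was positive (0.05) after scaling to the nuclear total, and mt-Atp6 negative (-0.37) after quantile normalization. mt-Cytb and mt-Atp6 were negative without centring, at -0.06 and -0.12. The complex IV members and mt-Nd1 were positive under these 3 scalings, and mt-Nd2, mt-Nd3 and mt-Nd5 negative. Other settings turned the sign of mt-Nd2 (0.07 in cells with at least 2000 genes detected) and of mt-Nd5 (0.28 with all columns kept and 0.12 with a pseudocount of 0.1). The sign of mt-Nd4 was the least stable, kept in 9 of the 17 alternative settings, with values from -0.43 to 0.36. When the median cell was taken instead of the mean, mt-Cytb and mt-Atp6 were at -0.07 and -0.06 and mt-Co3 was at 0.99, under the called size. Among cells with 3000 to 5000 genes detected mt-Atp6 was at -0.17, mt-Co3 at 0.95 and mt-Nd3 at -1.78. Quantile normalization gives genes of the same rank the same value in every cell, which limits differences among the most abundant genes. Under it mt-Co3 was at 0.33, below mt-Co1 at 0.76.

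The sets of 14-month cells are given separately below, and both are compared with the same 4-month cells. In set 4, 3 members were called higher (4.59% of measured genes), mt-Co3 at 1.78, mt-Co1 at 1.53 and mt-Co2 at 1.19. In set 5 none was called higher (6.63% of measured genes), with mt-Co3 at 0.89, mt-Co2 at 0.54 and mt-Co1 at 0.52. mt-Nd3 was called lower in each, at -2.56 in set 4 (6.75% of measured genes) and -2.39 in set 5 (6.56%). mt-Nd4 was at 0.37 in set 4 and -0.38 in set 5. Compared directly, set 5 minus set 4, mt-Co1 was the 1 member called lower, at -1.01 (4.47% of measured genes), and mt-Co3 was at -0.88. No member was called higher there (6.9% of measured genes), and mt-Nd2 was highest at 0.53. The complex IV transcripts were higher in set 4 than in set 5, and so was mt-Nd4, at -0.75 for set 5 minus set 4.

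**Figure D2:**
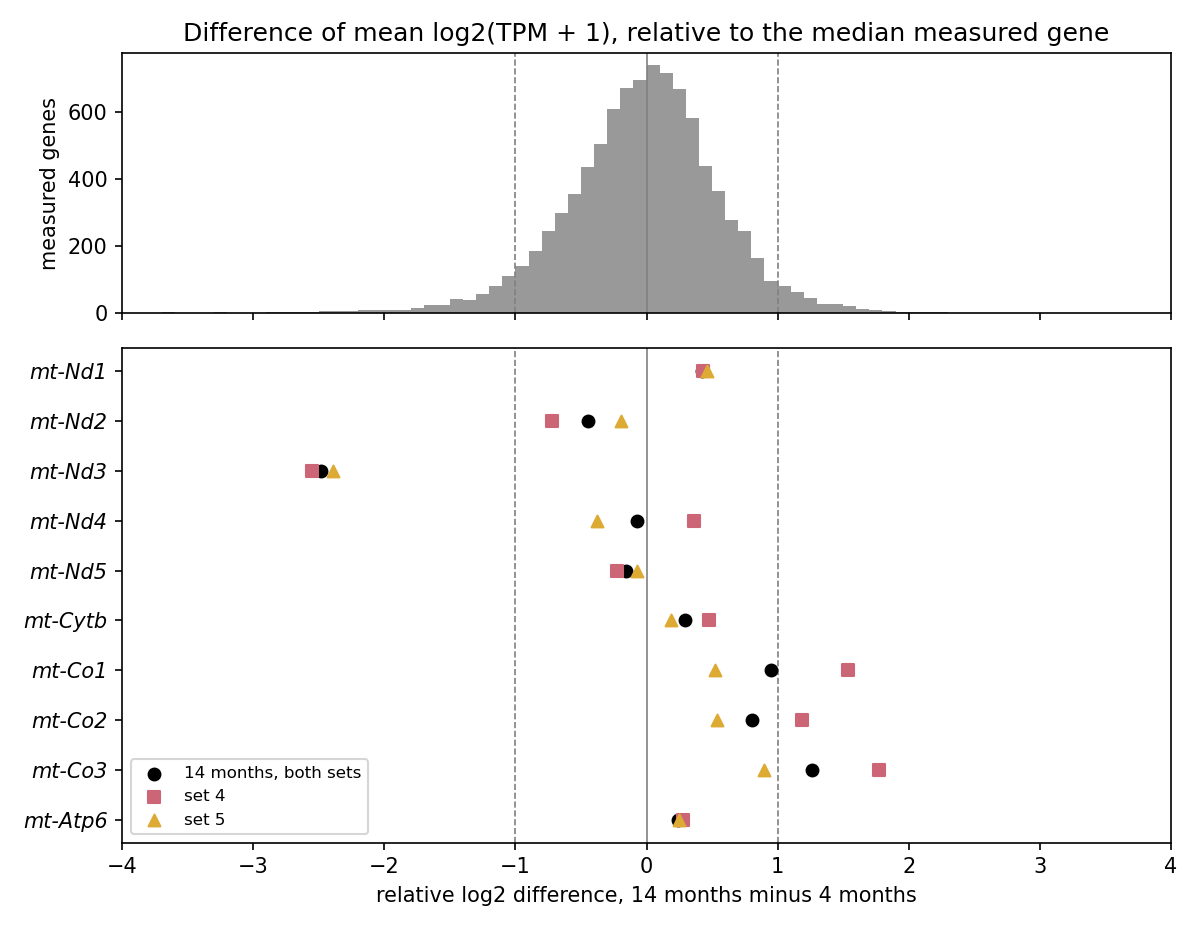
Upper panel, the number of measured genes at each difference of mean log2(TPM + 1), 14 months minus 4 months, relative to the median gene. Lower panel, the same value for each of the 10 transcripts in all 14-month cells (black), set 4 (squares) and set 5 (triangles), with dashed lines at the called size of 1. mt-Nd3 lies near -2.48 in all 3 comparisons, and mt-Co3 runs from 0.89 in set 5 to 1.78 in set 4.

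The share in the summed mitochondrial TPM of the same cell does not depend on the nuclear total. By that measure the complex IV members took a larger part at 14 months. The sum over all 37 mitochondrial genes of the table was used, of which 15 were above 0. The 3 complex IV transcripts made up a median 42.5% of it at 4 months (quartiles 39.7% and 44.5%), 63.5% in set 4 (52.4% and 67.9%) and 50.9% in set 5 (44.6% and 61.8%). The 5 complex I transcripts made up 10.0% at 4 months, 5.55% in set 4 and 7.21% in set 5. mt-Cytb made up 6.38%, 5.04% and 4.78%. mt-Atp6 made up 18.1%, 10.2% and 16.5%. The complex IV members' share was larger, and those of the other complexes' members smaller, in both sets than at 4 months. mt-Atp8, a complex V gene outside the members, stood at 10.9% at 4 months, 8.60% in set 4 and 11.1% in set 5.

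Most of that difference was in mt-Co3, whose median share was higher by 9.54 percentage points. Its share was a median 20.0% at 4 months (5.05% to 26.6%), 34.6% in set 4 (17.0% to 57.6%) and 25.9% in set 5 (0.378% to 60.5%). Of the 66 cells of 14 months, 39 had a larger mt-Co3 share than any of the 64 cells of 4 months, 22 of them among the 29 of set 4 and 17 among the 37 of set 5. The shares of mt-Co2 (14.0% and 15.5%) and mt-Co1 (8.59% and 9.56%) differed little between 4 and 14 months. Over the mitochondrial protein genes only, without the ribosomal RNAs, the differences were 9.01 points for mt-Co3, 0.60 for mt-Co1 and 0.21 for mt-Co2. With genes detected held between 3000 and 5000, mt-Co3 had a median share of 19.8% at 4 months, 35.0% in set 4 (15 cells) and 25.9% in set 5 (21 cells).

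By ratio, the share of mt-Nd3 differed most of the 10. Its median share was 1.34% at 4 months, 0.133% in set 4 and 0.415% in set 5. Of the 66 cells of 14 months, 54 lay below the lower quartile of the 4-month cells (0.884%) and 4 above their upper quartile (1.66%). The shares of mt-Nd5 (1.01% and 0.499%), mt-Nd2 (0.969% and 0.604%) and mt-Nd4 (1.58% and 1.10%) were lower at 14 months too, as was that of mt-Nd1 (4.74% and 3.90%). With means over cells in place of medians the mt-Nd5 share was higher at 14 months, by 0.31 percentage points, with the set 5 cell of 437837 TPM included. The mt-Nd1 difference was -0.83 points in all kept cells, -1.85 with set 4 only and -0.28 in cells with 3000 to 5000 genes detected. In all, 3 members had a larger median share at 14 months and 7 a smaller one. Shares of 1 cell sum to a fixed total, so they are not independent of each other. The median share of mt-Nd3 at 14 months was 0.174 of that at 4 months, and the next lowest ratio among the members was 0.496, for mt-Nd5. In cells with 3000 to 5000 genes detected the mt-Nd3 shares lay closer together, at 1.34% for 4 months and 0.411% for 14 months.

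**Figure D3:**
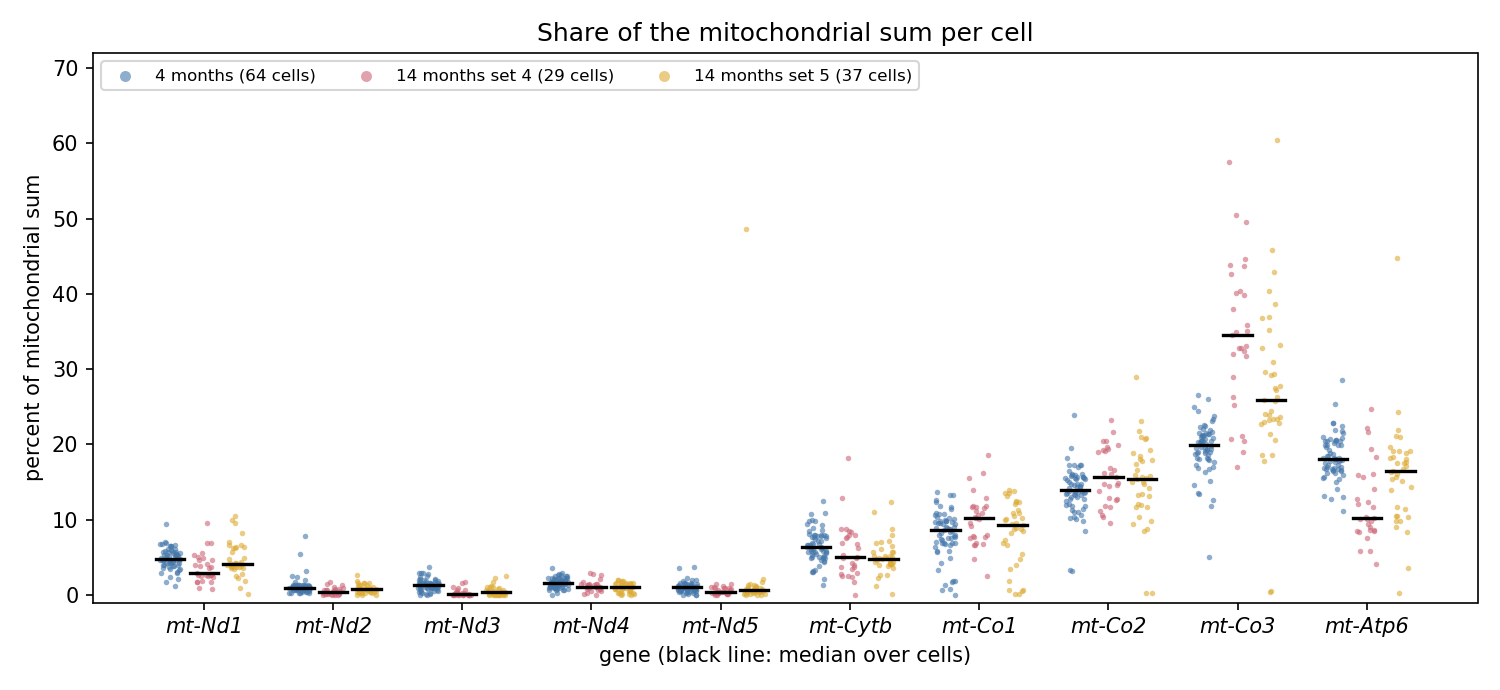
Share of each transcript in the mitochondrial sum of its cell, in percent on the vertical axis, for every kept cell by gene and set, with a black line at the median. For mt-Co3, 39 of 66 cells of 14 months lie above the highest cell of 4 months (26.6%), and the median share of mt-Atp6 is 18.1% at 4 months and 10.2% in set 4.

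The most abundant member of a cell was more often mt-Co3 among the 14-month cells, with no test of age. mt-Co3 was the highest of the 10 in 38 of 64 cells at 4 months (59.4%, exact interval 46.4% to 71.5%), and mt-Atp6 in 22 (34.4%, interval 22.9% to 47.3%). At 14 months mt-Co3 was highest in 56 of 66 cells (84.8%, interval 73.9% to 92.5%) and mt-Atp6 in 6 (9.09%, interval 3.41% to 18.7%). The share of cells led by mt-Co3 was 86.2% in set 4 and 83.8% in set 5. The intervals count cells of 1 sample per age and are no comparison of ages.

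The neighbours mt-Co3 and mt-Nd3 lay further apart in level at 14 months. These genes are separated by 68 bases that hold the tRNA gene mt-Tg. At 4 months the median over cells of log2 mt-Nd3 minus log2 mt-Co3 was -3.90 (quartiles -4.60 and -3.44), and at 14 months -7.29 (-10.1 and -5.38). In set 4 it was -8.02 and in set 5 -5.82. Upstream, mt-Atp6 and mt-Co3 share 1 base, and log2 mt-Co3 minus log2 mt-Atp6 had a median of 0.11 (quartiles -0.10 and 0.29) at 4 months and 0.99 (0.40 and 1.79) at 14 months. It was 1.77 in set 4 and 0.66 in set 5. Downstream, log2 mt-Nd4 minus log2 mt-Nd3 was 0.16 at 4 months and 2.04 at 14 months. For mt-Co2 against mt-Co1 the medians were closer, 0.63 at 4 months and 0.74 at 14 months. Relative to the 4-month cells, mt-Co3 was thus high and mt-Nd3 low against the nearest members on either side. mt-Nd4l lies between mt-Nd3 and mt-Nd4 but is not a member. Its relative difference at 14 months was negative too, at -1.41, and it is uncertain as a single gene, as described further on.

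The members were also compared by the form of their stop codon and by length. The 3 with an incomplete stop codon, mt-Co3, mt-Cytb and mt-Nd4, had relative differences of 1.26, 0.29 and -0.07. The 7 with a whole stop codon ran from -2.48 for mt-Nd3 to 0.95 for mt-Co1. Of the 3 shortest, mt-Nd3 (348 bases) was at -2.48, mt-Atp6 (681 bases) at 0.24 and mt-Co2 (684 bases) at 0.80.

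From cell to cell, the members had higher correlations with each other at 4 months than in either 14-month set. Over the 45 pairs of members, Spearman's correlation of TPM across the 64 cells of 4 months had a median of 0.72 and ran from 0.46 to 0.93. Set 4, with 29 cells, had a median of 0.32 (-0.09 to 0.77). Set 5, with 37 cells, had a median of 0.38 (-0.01 to 0.80). mt-Co3 and mt-Atp6, adjacent genes, correlated at 0.93 at 4 months, 0.30 in set 4 and 0.41 in set 5. For mt-Co2 and mt-Co3 the values were 0.925, 0.73 and 0.80. These values are descriptions over cells that share a capture and a fixed TPM total. With levels taken relative to the nuclear TPM, the medians were 0.77, 0.42 and 0.45. Among cells with 3000 to 5000 genes detected, the median correlation of TPM was 0.76 at 4 months, 0.16 in set 4 and 0.35 in set 5. Depth per cell is unknown, and its part here was not tested.

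**Figure D4:**
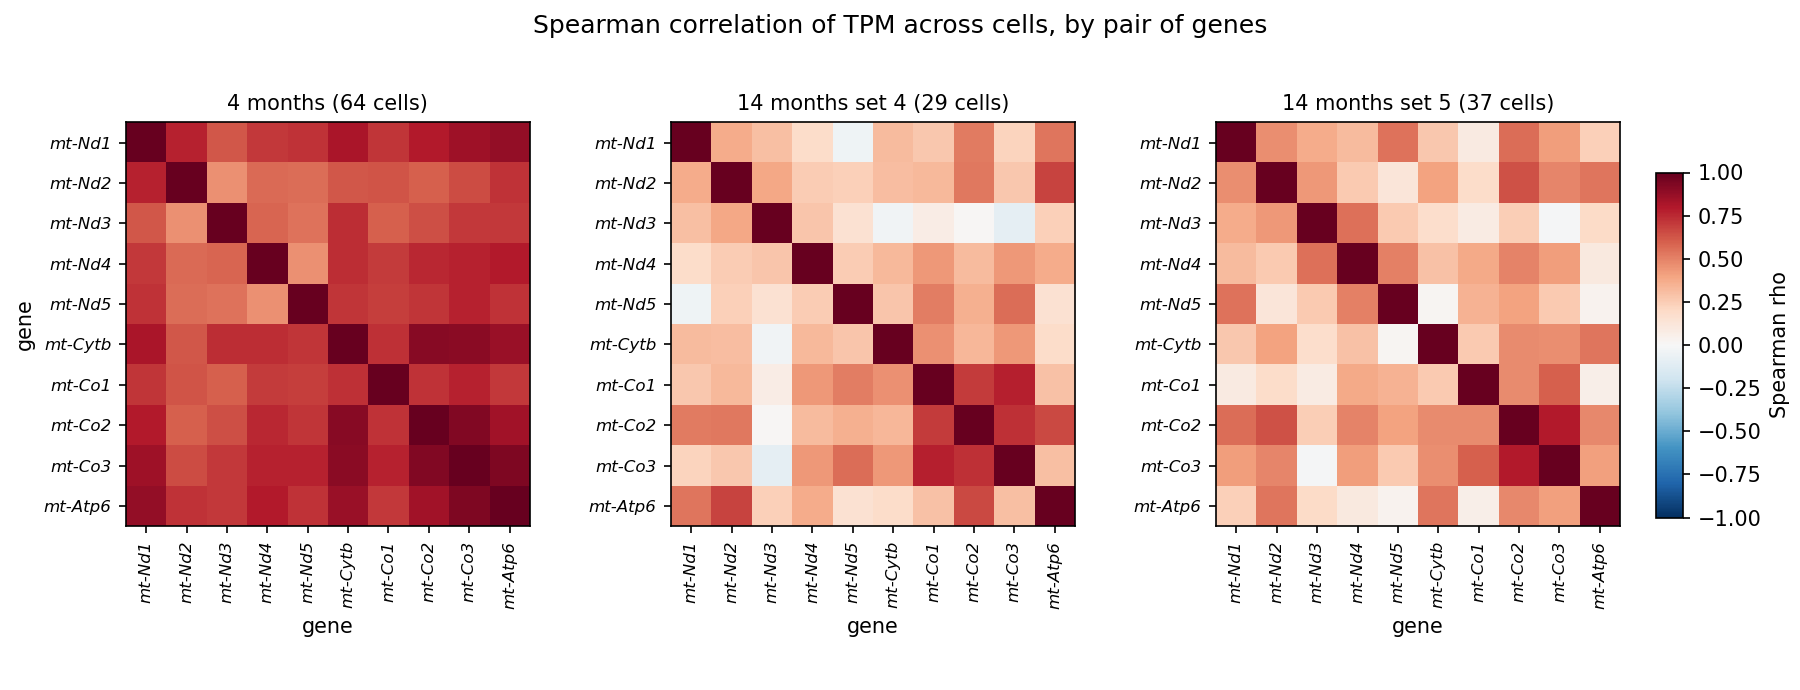
Spearman correlation of TPM across kept cells for each pair of the 10 transcripts, one panel for each set of cells, on a colour scale from -1 (blue) to 1 (red). The 4-month panel is red throughout (median 0.72), while the set 4 and set 5 panels are paler (medians 0.32 and 0.38), with mt-Nd3 among the palest rows.

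The shares of mt-Atp6 and mt-Co3 varied less between cells at 4 months. The SD over cells of the log2 share of mt-Atp6 was 0.23 at 4 months, 0.61 in set 4 and 1.16 in set 5. For mt-Co3 it was 0.34, 0.44 and 1.42. Without 2 cells the set 5 values were 0.53 for mt-Atp6 and 0.40 for mt-Co3. In set 4 the SD was smaller than at 4 months for mt-Co1 (1.55 at 4 months, 0.57 in set 4) and mt-Co2 (0.45 and 0.35). In cells with 3000 to 5000 genes detected it was 0.75 and 0.64 for mt-Co1 and 0.28 and 0.35 for mt-Co2. mt-Nd3 had the widest spread of all members in each set of cells, 1.99 at 4 months, 3.32 in set 4 and 4.21 in set 5. At 4 months mt-Nd5 was close to it, at 1.94. In cells with 3000 to 5000 genes detected the SD of mt-Nd3 was 1.06 at 4 months, 1.97 in set 4 and 1.95 in set 5. There mt-Nd5 had a wider spread than mt-Nd3 at 4 months (1.16) and in set 5 (2.11), but not in set 4 (1.09).

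**Figure D5:**
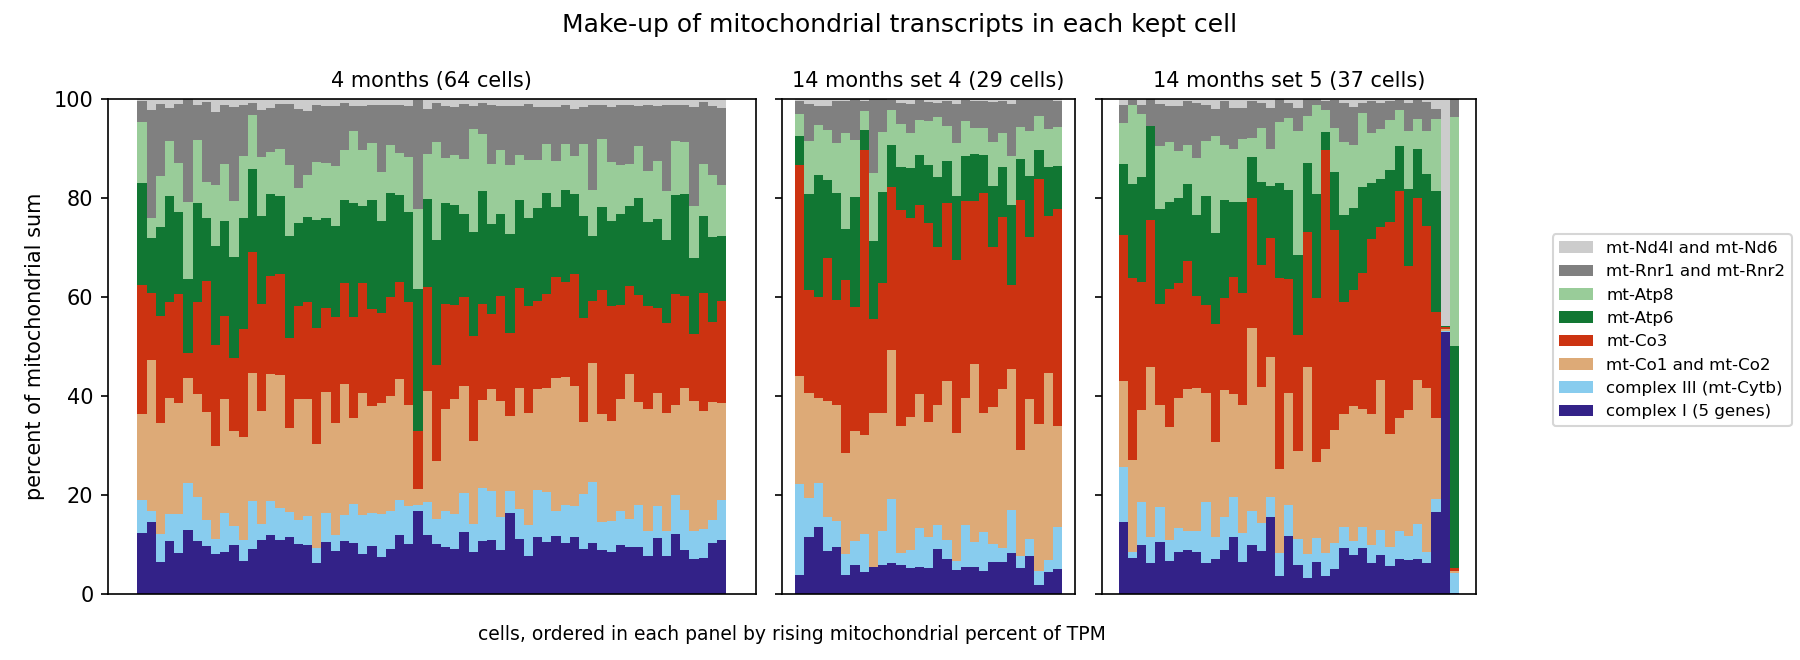
Make-up of the mitochondrial sum in every kept cell, in percent on the vertical axis, with 1 bar per cell ordered in each panel by rising mitochondrial percent of TPM. The mt-Co3 part (red) is wider in set 4 (median 34.6%) than at 4 months (20.0%), and the 2 rightmost cells of set 5 are led by other genes.

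Those 2 cells of set 5 were each led by a pair of overlapping genes whose shared bases are printed above. In the first, mt-Nd5 was at 437837 TPM and mt-Nd6, on the opposite strand, at 411823 TPM, or 48.7% and 45.8% of its mitochondrial sum. In the second, mt-Atp6 was at 410197 TPM and mt-Atp8 at 425617 TPM, or 44.8% and 46.4% of the sum. Mitochondrial genes made up 89.9% and 91.7% of TPM in these cells, and mt-Co3 only 0.378% and 0.520% of the mitochondrial sum. They had 1156 and 1361 genes detected, near the lower limit. No other kept cell had an mt-Co3 share under 1%. Another 4 kept cells, 3 of 4 months and 1 of set 4, were over 50% mitochondrial, and there mt-Co3 (3 cells) or mt-Atp6 (1 cell) was the highest member, with mt-Co3 between 95275 and 352894 TPM. Without the 2 cells, mt-Co3 was at 26.3% of the mitochondrial sum in set 5, and 2 members were called higher at 14 months in place of 1. The share of all measured genes called was not computed without these cells.

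The mitochondrial genes outside the 10 members included some of the largest differences. mt-Rnr1, the RNA of the small mitochondrial ribosome subunit, had a median of 2331 TPM at 4 months, 546 TPM in set 4 and 647 TPM in set 5, a relative difference of -2.07. Of the 66 cells of 14 months, 50 had a smaller mt-Rnr1 share than any cell of 4 months. mt-Rnr2, the RNA of the large subunit, was at -0.23, with medians of 10411, 10354 and 7102 TPM. mt-Atp8, a small complex V subunit whose gene overlaps mt-Atp6 by 43 bases, was at 0.20, with 0.60 in set 4 and -0.08 in set 5. mt-Nd6, the only protein gene of the other strand, was at -1.24, and its reads cannot be told apart from those of mt-Nd5 where the genes overlap unless strand was used in counting. mt-Nd4l was at -1.41. It is uncertain as a single gene because Gm10222, an annotated pseudogene in a nuclear copy of mitochondrial DNA on chromosome 1 (24612407 to 24612700), had the same value in all 168 columns. All 294 bases of Gm10222 match mt-Nd4l. GENCODE annotates 7 genes in that nuclear copy, and Gm10222 is the 1 with a row in the table analysed here. The others have no row of their own. Whether reads from them were counted in the members' values, those of mt-Co3 and mt-Nd3 included, was not tested. All 22 mitochondrial tRNA genes were listed at 0 in every column.

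Nuclear genes of the same pathway lay on both sides of the median gene. Of 86 nuclear respiratory chain genes, 79 were measured, and 4 were called higher and 2 lower at 14 months, where 3.37% and 5.08% of all measured genes were. In set 4 alone 10 were called higher and 3 lower, and in set 5 alone 11 and 4, beside 4.59% and 6.75% of all measured genes in set 4 and 6.63% and 6.56% in set 5. The list's median was 0.17 in each set. Over all 14-month cells its median was 0.07, with 44 above and 35 below the median gene. Sdhd, an anchor subunit of complex II, was at 2.09 and Ndufa5, a complex I subunit, at 1.61. Cox7c, a small complex IV subunit, was at -1.33 and Ndufs3, a complex I core subunit, at -1.02.

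The machinery that makes and handles mitochondrial RNA lay on both sides of the median gene too. Of 32 listed names for mitochondrial transcription and RNA processing, 25 genes were measured, none was called higher and 1 lower at 14 months, beside 3.37% and 5.08% of all measured genes, with a median of -0.07. Set 4 alone gave 1 higher and none lower, and set 5 alone 1 and 1. Of all measured genes, 4.59% were called higher and 6.75% lower in set 4, and 6.63% and 6.56% in set 5. The gene called lower in all 14-month cells was Tbrg4, an RNA-binding protein that stabilises mitochondrial mRNAs. Its relative difference was -1.49, with -0.96 in set 4 and -1.87 in set 5. Tbrg4 was detected in 92.2% of 4-month and 71.2% of 14-month cells. Tfb2m, a factor of transcription start, was at 0.96, with 0.39 in set 4 and 1.44 in set 5. The elongation factor Tefm was at 0.87 and Polrmt, the mitochondrial RNA polymerase, at -0.59. Few cells held them, with Tefm detected in 12.5% of 4-month and 22.7% of 14-month cells and Polrmt in 28.1% and 10.6%. For mitochondrial DNA replication 12 of 14 names were measured, 1 was called higher and none lower, beside the same 3.37% and 5.08%, with a median of 0.06. There were 2 higher and none lower in set 4, and 1 and 1 in set 5, beside the same shares of all measured genes per set. The gene called in all 14-month cells was Prim1 (1.58), a primase subunit of nuclear replication. Ssbp1, which coats single-stranded mitochondrial DNA, was at 0.64, but at 1.43 in set 4 and 0.05 in set 5. The helicase Twnk was at -0.42 and Rrm2b, which supplies nucleotides, at -0.92.

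Among 12 regulators of mitochondrial biogenesis 11 were measured and none was called higher or lower at 14 months, beside 3.37% and 5.08% of all measured genes, with a median of -0.30. In set 4 alone 1 was called lower, and in set 5 alone none in either direction. Of all measured genes, 4.59% were called higher and 6.75% lower in set 4, and 6.63% and 6.56% in set 5. Myc was at 0.39 and the coactivator Ppargc1b at 0.49, while Hif1a was at -0.59 and Yy1 at -0.51. Without centring, Myc was at 0.03, Ppargc1b at 0.14, Hif1a at -0.95 and Yy1 at -0.86. Ppargc1b was detected in only 9.38% of 4-month and 12.1% of 14-month cells. Of 45 assembly and translation partners 40 were measured, none was called higher and 2 lower, beside the same 3.37% and 5.08%, with a median of -0.10. The counts were 1 higher and 1 lower in set 4, and 2 and 2 in set 5, beside the same shares of all measured genes per set. The 2 called lower in all 14-month cells were Uqcc3, an assembly factor of complex III (-1.13), and Acad9, one of complex I (-1.11). The translation factor Tufm was at 0.94 in all 14-month cells, with -0.05 in set 4 and 1.75 in set 5, and Cox16, which helps to assemble complex IV, was at 0.73.

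Few nuclear genes followed the members from cell to cell. For 2093 nuclear genes detected in at least 50% of kept cells, the level was correlated with the members' summed level, both relative to the nuclear TPM, within each of the 3 sets of cells. The mean Spearman correlation over the sets had a median of -0.05 and ran from -0.38 to 0.41. The 5 highest were Klk14 (0.41), Mia2 (0.36), Grk4 (0.34), Olfr613 (0.33) and the nuclear long non-coding RNA Malat1 (0.33). Olfr613 had 0.58 at 4 months but -0.07 in set 5. The 5 lowest were the mitochondrial respiration factor Higd1a (-0.38), Adgrg1 (-0.36), the complex I subunit Ndufb8 (-0.36), the ribosomal protein gene Rpl34 (-0.35) and the elongation factor gene Eef1a1 (-0.34). These are extremes of many weak correlations and are given as a description.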

How the data were processed

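RNA was measured in single LMPPs of 4 and 14 months. The deposited TPM values were made by the authors, and Bowtie2 2.2.0, RSEM 1.2.12 and build mm10 are named, with no role or order, per the submitters' processing notes. Neither the handling of reads shared by overlapping or copied genes nor the use of strand is stated in the labels. Spike-in RNA was added per the labels' protocols, and 0 rows of the table were identified as spike-ins, so none was used. Columns were grouped by the start of their names, and 0 columns were left unused. Symbols, coordinates and sequences came from GENCODE M21 (mm10), and 37607 of 38924 identifiers had a symbol. Kept cells, detected genes and measured genes are defined in the report. Mean log2(TPM+1), with a pseudocount of 1, was taken over kept cells, which understates changes of low genes. With 1 sample per age no test, p-value or standard error was computed. Exact (Clopper-Pearson) intervals are given at 95%. The calculation of differences was tested on simulated data. The members, the gene lists and the alternatives were chosen with earlier results of these data known. Named were all 10 members, the other mitochondrial genes, the 2 highest and 2 lowest measured genes of each list and the 5 nuclear genes at each end of the likeness ranking. That ranking left out predicted genes and pseudogenes. Calculations used pandas 2.3.3 and scipy 1.17.1 under Python 3.11.15, with numpy 2.4.6, and plots matplotlib 3.10.9. The alternatives tried were other limits on cells and genes, pseudocounts, scalings, denominators and each set alone.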

Additional observations from a re-analysis of the deposited data

How the results depend on the processing

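The count of 1 member called lower (mt-Nd3) was 1 in all 17 alternatives run, with relative differences from -2.84 to -1.52. The count called higher depended on the setting because mt-Co1, mt-Co2 and mt-Co3 lie near the called size. It was 3 with all columns kept, without cells over 50% mitochondrial, with set 4 only and with a pseudocount of 0.1. It was 2 without the highest cell of each age, with genes in at least 30% of cells and after scaling to the nuclear total. Leaving out the 2 set 5 cells of unusual make-up, an alternative chosen after seeing the data, also gave 2. It was 0 with set 5 only, in cells with 3000 to 5000 genes, with medians over cells, without centring and after quantile normalization. The share of all measured genes called was not computed under each alternative, so these counts describe the members only. mt-Co3 kept a positive difference throughout these settings (0.33 to 1.77). The difference in the members' summed percent of TPM was 3.16 points with set 5 only, and was positive in all 11 alternatives run. The share of complex IV was higher by 12.9 points in all kept cells, 21.0 with set 4 only and 8.40 with set 5 only. The share of complex V, here mt-Atp6 alone, differed by -7.91 points with set 4 only and -1.59 with set 5 only. Over the 10 members as denominator it differed by -7.03, and complex III by -2.33. Among cells with 3000 to 5000 genes complex I differed by -1.97 and complex III by -0.85 points, and with means over cells complex I by -2.18. The direction of each complex, taken by its members, was the same in the 13 alternatives run. No paired analysis was possible because replicate numbers in the labels name single cells, columns cannot be matched to them and no test was made. Unknown depth limits mt-Nd3, mt-Nd4l and the other low genes most, since listed zeros may lie under the depth of a cell.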

Other observations

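The columns left out for having fewer than 1000 genes detected also held mitochondrial RNA. In the 20 such columns of 4 months the members made up a median 16.0% of TPM, from 0% to 70.3%, and were over 50% in 7 and listed at 0 in 3. In the 16 of set 4 the median was 17.0%, from 2.33% to 83.8%, with 4 over 50%, and the 2 of set 5 held 12.1% and 30.0%. mt-Atp6 had the highest median of the 10 members in the left-out columns of 4 months (52846 TPM, with mt-Co3 at 23718 TPM), whereas mt-Co3 did in those of set 4 (57696 TPM, with mt-Atp6 at 18243 TPM). In the 2 of set 5 mt-Atp6 was the higher, with a median of 139345 TPM against 46035 TPM for mt-Co3. mt-Nd3 had a median of 0 in the left-out columns of both ages.

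Within complex V, the overlapping genes mt-Atp8 and mt-Atp6 took shares of the mitochondrial sum that were each larger at 4 months (10.9% and 18.1%) than in set 4 (8.60% and 10.2%). In set 5 mt-Atp8 stood at 11.1% and mt-Atp6 at 16.5%. The ribosomal RNAs mt-Rnr1 and mt-Rnr2 together made up 10.7% of the mitochondrial sum at 4 months and 5.48% at 14 months, with 5.50% in set 4 and 5.44% in set 5.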
